A study of Homo sapiens with 4 samples.

Results

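The m6A peaks of 9 genes of the YAP and TEAD pathway were described in GES-1 cells, a human gastric epithelial cell line, with and without chenodeoxycholic acid (CDCA), a bile acid that the liver makes from cholesterol. Members were all listed peaks whose summit lay inside the spans given for CTGF, CYR61, ANKRD1, AMOTL2, YAP1, WWTR1, LATS1, LATS2 and TEAD1 in hg19. In order of role, the targets were CTGF (chromosome 6, 132269000 to 132273000, minus strand), CYR61 (chromosome 1, 86046000 to 86050000, plus), ANKRD1 (chromosome 10, 92671000 to 92682000, minus) and AMOTL2 (chromosome 3, 134074000 to 134095000, minus). The coactivators were YAP1 (chromosome 11, 101981000 to 102105000, plus) and WWTR1 (chromosome 3, 149235000 to 149422000, minus). The kinases were LATS1 (chromosome 6, 149979000 to 150040000, minus) and LATS2 (chromosome 13, 21547000 to 21636000, minus), and the DNA-binding factor was TEAD1 (chromosome 11, 12695000 to 12967000, plus). The rule found 59 of 63093 peaks in the control list and 37 of 52188 peaks in the CDCA list. These 9 genes were chosen by pathway with their peak values in these lists already known, so every value below is a description. The series held 4 samples, an input and an immunoprecipitation made with an m6A antibody for untreated cells and likewise for cells exposed to 100 µM CDCA during 48 h, all grown in RPMI-1640 medium. All libraries were made from RNA freed of ribosomal RNA, and the peak lists of the immunoprecipitations were used here. The study dealt with ALKBH5, an enzyme that erases m6A, in bile acid-driven intestinal metaplasia, and the lists serve to ask how m6A sites differ after CDCA. Each condition had 1 library, so conditions could not be tested against each other. Intervals are 95% by the exact Clopper-Pearson method, treat peaks as independent and reflect counting error alone. Cell identity could not be read from markers, since the lists hold no expression values.

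YAP1 and its paralogue WWTR1 (also called TAZ) are transcriptional coactivators at the end of the Hippo pathway. The kinases LATS1 and LATS2 phosphorylate them and keep them out of the nucleus. When they are not phosphorylated, they bind TEAD factors on DNA and switch on targets such as CTGF, CYR61 and ANKRD1, which makes these genes common readouts of contact, stretch and growth signals in epithelia. m6A is a methyl mark on adenosines of RNA, known to be dense near stop codons and in long internal exons, and it is read by proteins that alter the stability and translation of the transcript.

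The following values of each peak are the authors' own: the height at the summit, the −log10 of the q-value, which measures how far the height stands above the local background, and the fold enrichment, the height plus 1 over that background plus 1. The local background was recovered from height and fold. In MACS2 it is drawn from control reads around the summit, and whether the input libraries served as that control is not given in the sources used here. Each list was made against its own background, so these values rank peaks within a list and are given side by side without a direction between lists. A lower height can come from fewer methylated molecules or from fewer molecules of the transcript, and the lists cannot tell these apart. Heights are also scaled per list, at 0.862 per stacked fragment in control and 0.640 in CDCA. A lower CDCA height can therefore hold more fragments: heights of 307 and 258 at the strongest LATS1 site were 356 and 404 fragments. Peaks carry no strand and no gene name, so a peak inside a span may belong to another transcript there. Exons, introns and untranslated regions were not assigned, because an hg19 annotation was not used here. Span ends are rounded to 1 kb, and so are distances to the 3′ end.

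The 9 genes ranged from no listed peak at ANKRD1 to 19 control peaks at TEAD1. In control the spans held 1 peak at CTGF, 1 at CYR61, 2 at AMOTL2, 4 at YAP1, 11 at WWTR1, 10 at LATS1, 11 at LATS2 and 19 at TEAD1. In CDCA they held 1 at CTGF, none at CYR61, 1 at AMOTL2, 1 at YAP1, 11 at WWTR1, 7 at LATS1, 11 at LATS2 and 5 at TEAD1. No gene had more peaks in the CDCA list than in the control list. WWTR1, LATS2 and CTGF had equal numbers, and ANKRD1 had none in either. The CDCA number was 62.7% of the control number (40.4 to 96.2), beside 82.7% for the whole lists. TEAD1 made up 14 of the difference of 22 peaks, and without it the numbers were 40 and 32, or 80.0% (48.6 to 131).

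**Figure D1:**
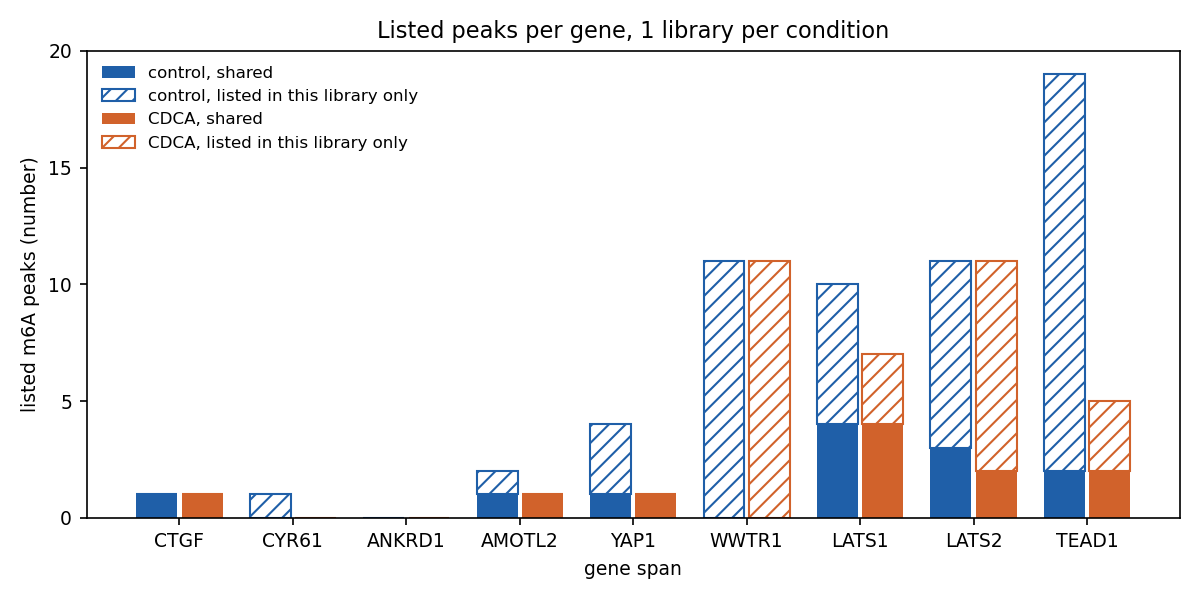
Number of listed m6A peaks (y axis) in each gene span (x axis) for the control (blue) and CDCA (orange) library, 1 library each and therefore without error bars, with filled parts for peaks that overlap a peak of the other list and hatched parts for the rest. TEAD1 has 19 and 5 peaks, WWTR1 has 11 and 11 with none shared, and ANKRD1 has none.

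Few of these peaks were at the same place in both lists. A peak was called shared when at least 1 bp of it lay within some peak of the opposite list. In the control list 12 of the 59 member peaks were shared (20.3%, 11 to 32.8), beside 18.2% of all control peaks. In the CDCA list 11 of 37 were shared (29.7%, 15.9 to 47.0), beside 22.2% of all CDCA peaks. Both shares are near those of the whole lists. Strong peaks, defined by a −log10 q not under 100, made up 10 of the 59 control peaks (16.9%, 8.44 to 29.0), beside 7.77% of the control list. In the CDCA list they were 7 of 37 (18.9%, 7.96 to 35.2), beside 7.90%. Of the strong member peaks, 6 of 10 in control were shared (60%, 26.2 to 87.8), beside 87.6% of all strong control peaks, and 6 of 7 in CDCA (85.7%, 42.1 to 99.6), beside 91.2%. Peaks of a gene can share a transcript, so these intervals, which treat peaks as independent, can be too narrow. Below that level, 6 of 49 control peaks and 5 of 30 CDCA peaks were shared, beside 12.3% and 16.3% in the lists. Medians over the members were close to those of the lists for fold (9.07 beside 9.67 in control, 8.85 beside 8.63 in CDCA) and −log10 q (21.7 beside 19.9 and 15.7 beside 14.4). Median background was 2 beside 1.36 in control and 1.6 beside 1 in CDCA.

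**Figure D2:**
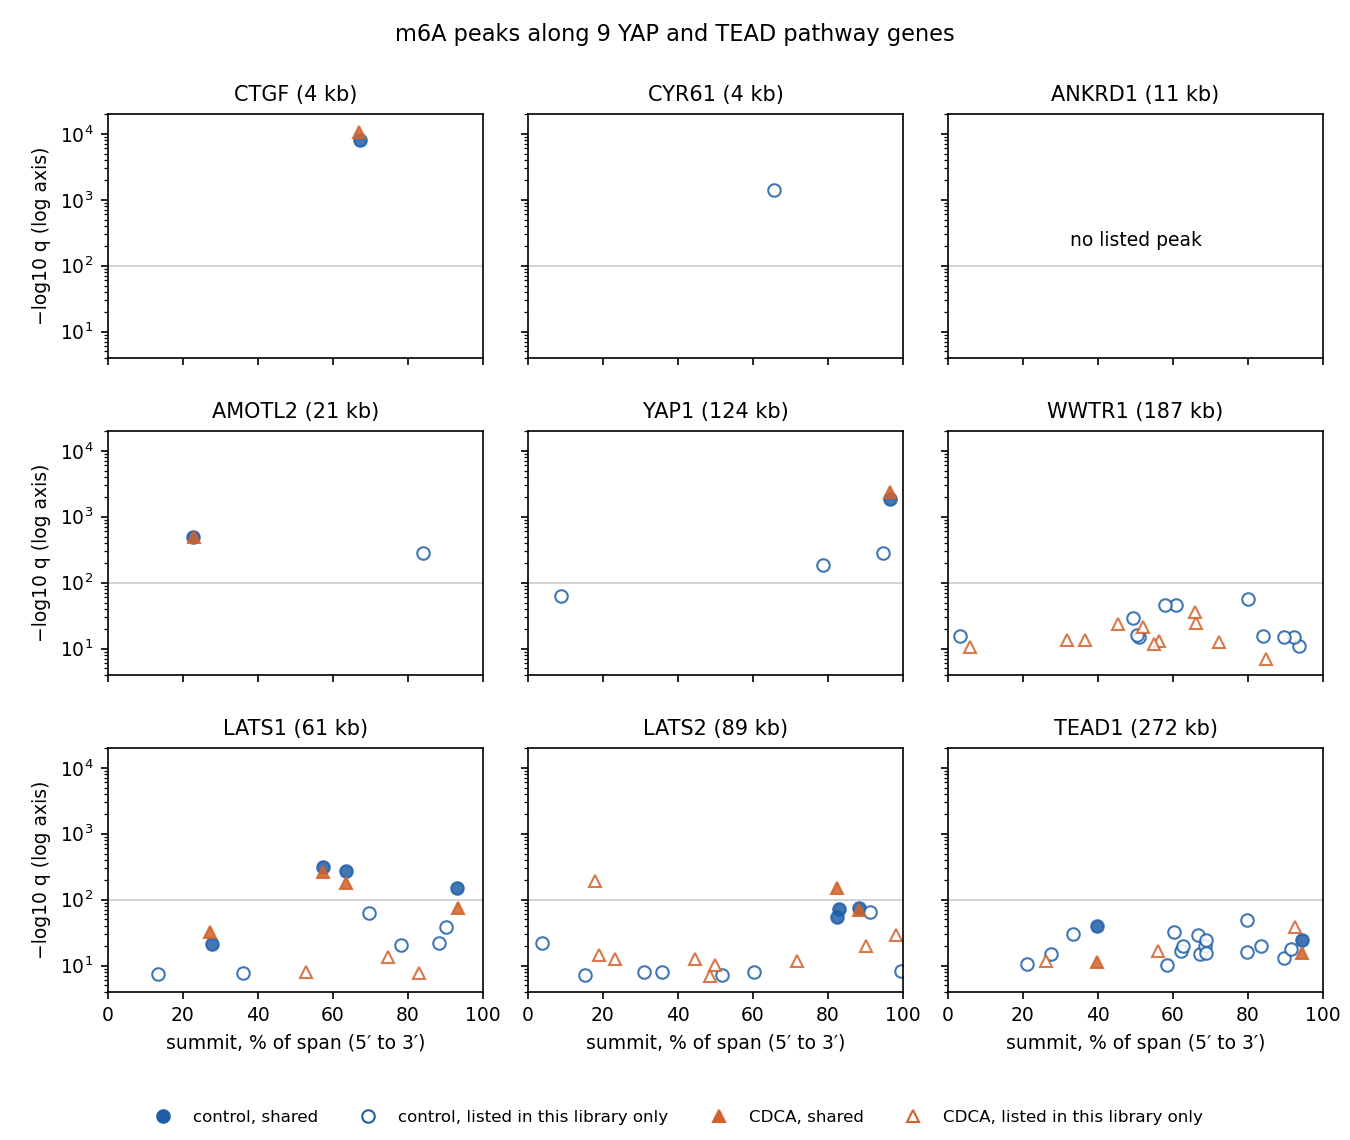
Position of each summit as a percentage of the gene span from 5′ to 3′ (x axis) against its −log10 q on a log axis (y axis), with circles for control, triangles for CDCA, filled symbols for shared peaks and a grey line at 100. The CTGF peaks of both libraries stand highest (8088 and 10583), the control peaks of YAP1 rise towards its 3′ end, and the WWTR1 peaks all lie below 100 with no filled symbol.

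CTGF, a secreted matricellular protein now called CCN2 and a classic YAP target, had the strongest m6A site of the group in both libraries. The control peak on chromosome 6 at 132269800 to 132270624 had a height of 11192, a fold of 13.3 and a −log10 q of 8088. The CDCA peak at 132269793 to 132270617 had a height of 13342, a fold of 15.8 and a −log10 q of 10583. Both peaks were 825 bp long, they overlapped by 818 bp, and their summits were 6 bp apart, about 1.3 kb from the 3′ end of a span of 4 kb. The site was number 9 of the control list and number 4 of the CDCA list by −log10 q. Its heights correspond to 12977 and 20858 stacked fragments. Whether these are all independent molecules is unknown, and so is variation between libraries. The local background was 840 in control and 841 in CDCA, which is 1052 and 1128 times the lowest background of each list. The site thus stood on a high background, and its fold was less extreme than its rank: 26.4% of control peaks and 10.5% of CDCA peaks had a fold at least as high.

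CYR61, the paralogue of CTGF now called CCN1, had a peak in the control list only. It lay on chromosome 1 at 86048463 to 86049005, about 1.4 kb from the 3′ end of its span, with a height of 3375 and a −log10 q of 1430. Its fold was 6.13, close to 6, the lowest fold in the control list, and 97.8% of control peaks had a fold at least as high. Its background of 550 was among the highest of the list (0.00792% of control peaks had one as high). The CDCA list held no peak between 86024239 and 86066181, but it left out 3 peak numbers in this gap of 41.9 kb. Peaks carry running numbers along each chromosome, and a number left out shows that a peak was numbered somewhere in the gap and is not in the list. Its position and values are unknown. The lists therefore cannot tell whether a numbered CDCA peak lay at CYR61. The nearest listed CDCA peak was 17177 bp away.

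ANKRD1, a nuclear ankyrin repeat protein that is strongly driven by YAP in many cells, had no listed peak in either library. The nearest control peak ended 3095 bp outside its span, beyond the 3′ end, with a −log10 q of 32.6. The nearest CDCA peak ended 5653 bp outside on the same side, with a −log10 q of 169. Between the listed peaks on either side of the gene the control list left out 3 numbers and the CDCA list 1. The CTGF and ANKRD1 promoters are printed because these targets stand at both ends of the group, with the strongest site and with no listed peak. The sequences are the 250 bases before the start of each gene from RefSeq (GRCh38.p14, minus strand), and capitals mark GGAATG, the core letters that TEAD factors bind. The match was sought on both strands, as GGAATG or CATTCC.
CTGF: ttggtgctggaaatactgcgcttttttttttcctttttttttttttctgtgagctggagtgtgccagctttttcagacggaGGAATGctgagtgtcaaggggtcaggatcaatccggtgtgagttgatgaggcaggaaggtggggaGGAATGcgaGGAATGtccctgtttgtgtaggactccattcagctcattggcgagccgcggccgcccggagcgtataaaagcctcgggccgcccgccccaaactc
ANKRD1: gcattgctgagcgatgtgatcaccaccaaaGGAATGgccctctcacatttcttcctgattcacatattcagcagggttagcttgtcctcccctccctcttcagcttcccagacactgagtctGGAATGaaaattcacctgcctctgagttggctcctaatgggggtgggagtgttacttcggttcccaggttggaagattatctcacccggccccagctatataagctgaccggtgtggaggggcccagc
The CTGF promoter held 3 matches and the ANKRD1 promoter 2. Of 35116 promoters of this length, 11.9% held at least 1 match, 0.928% held 2 or more and 0.0797% held 3 or more. Promoters of 7 of the 9 genes were matched, 10 in all because some genes have more than 1 start, and 4 of the 10 held a match: those of CTGF, ANKRD1 and YAP1 and 1 of the 2 of AMOTL2. A match is a run of letters and says nothing about binding in these cells.

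AMOTL2, an angiomotin family member that is both a YAP target and a binder that holds YAP in the cytoplasm, had 2 strong control peaks and 1 strong CDCA peak. The shared site lay on chromosome 3 towards the 5′ end, at 22.7% of the span in control and 23.0% in CDCA, in a gene of 21 kb. The control peak at 134089218 to 134090433 had a height of 846, a fold of 9.31 and a −log10 q of 494. Its CDCA partner at 134089423 to 134090386 had a height of 963, a fold of 7.84 and a −log10 q of 497, and lay wholly within it. The backgrounds were 90 and 122. The other control peak, at 134077201 to 134077638 and about 3.4 kb from the 3′ end, had a height of 655, a fold of 6.19, a −log10 q of 280 and a background of 105. It faced a gap of 44.2 kb in the CDCA list, in which 8 peak numbers were left out. The CDCA peak on the far side of this gap ended 28806 bp outside the span, so these numbers may lie outside the gene.

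YAP1 carried its strongest m6A site near the 3′ end of the gene in both libraries, with the same summit base. The control peak on chromosome 11 at 102100351 to 102100868 had a height of 3575, a fold of 7.93 and a −log10 q of 1858. The CDCA peak at 102100359 to 102101255 had a height of 3739, a fold of 10.5 and a −log10 q of 2350. Both summits were about 4.4 kb from the end of the span of 124 kb, and the backgrounds were 450 and 355. The CDCA peak was longer, 897 bp against 518 bp, and ran on towards the 3′ end. By −log10 q the site was number 140 of the control list and number 77 of the CDCA list.

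The other 3 YAP1 peaks were listed in control alone. The peak at 102098007 to 102098502, just before the shared site, had a fold of 6.55 and a −log10 q of 279. The peak at 102078452 to 102078729 had 7.14 and 185, and that at 101991804 to 101992128, near the 5′ end, had 7.62 and 61.7. Their backgrounds were 93.8, 53.0 and 14.8, in order from the 3′ side. All 3 faced a gap of 154 kb in the CDCA list, in which 15 peak numbers were left out. The CDCA peak before this gap ended 34648 bp outside the span, so these numbers may lie outside the gene. Within the YAP1 span the control list left out 10 numbers between its listed peaks. A further control peak ended 8 bp before the span, at 101980595 to 101980992, with a fold of 9.72 and a −log10 q of 131. It is outside the rule, and it was the only peak added in either list when the spans were widened by 1 kb.

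WWTR1 had 11 peaks in each list, all with a −log10 q under 100, and none was shared. In the whole lists 12.3% of control peaks and 16.3% of CDCA peaks under that level were shared. No interval was computed for 0 of 11, so whether WWTR1 differs from the lists was not tested. The control peaks had folds from 6.74 to 21.3 and −log10 q from 11.1 to 56.2, and the CDCA peaks had folds from 6.80 to 17.5 and −log10 q from 6.95 to 35.8. No peak of either list was strong. Backgrounds were low, from 0.799 to 3.50 in control and from 0.746 to 2.84 in CDCA, where the background at the YAP1 3′ site was 450 and 355. The strongest control peak lay on chromosome 3 at 149272562 to 149272785 (height 50, fold 21.3), with no CDCA peak closer than 9237 bp. The strongest CDCA peak lay at 149298822 to 149299077 (height 33.9, fold 17.5), with no control peak closer than 9240 bp. Distances to the nearest peak of the other list ran from 1558 bp to 16109 bp for the control peaks and to 32830 bp for the CDCA peaks. A number left out stood beside 9 of the 11 control peaks and 8 of the 11 CDCA peaks, and at the other 2 and 3 peaks the opposite list had numbered no further peak in the gap. Over all genes such a number stood beside 38 of 47 control-only members (80.9%, 66.7 to 90.9), where the list has 73.2%. It stood beside 15 of 26 CDCA-only members (57.7%, 36.9 to 76.6), where the list has 63.2%. Peaks in the same gap share this outcome, and a TEAD1 gap alone gave 14 of the 38. These intervals treat such peaks as independent, so they are too narrow, and no difference from the lists is read from them.

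**Figure D3:**
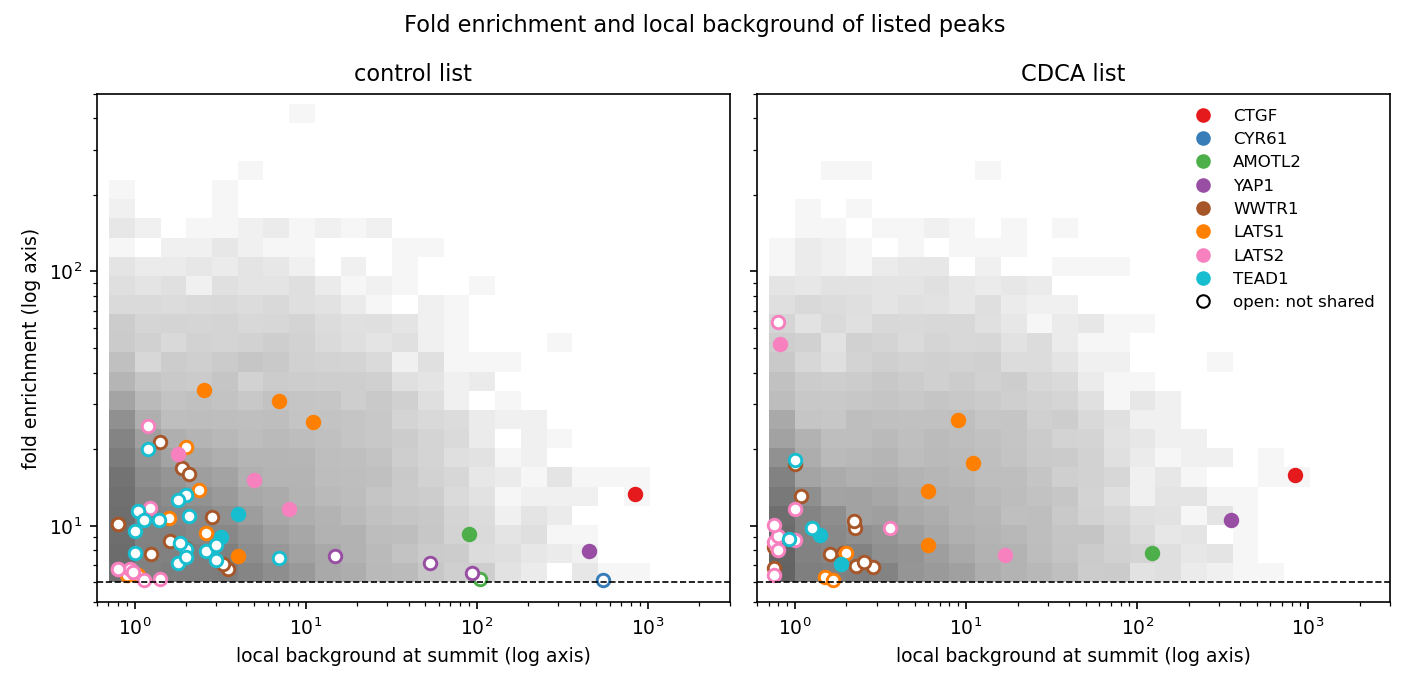
Fold enrichment (y axis, log) against the recovered local background at the summit (x axis, log) for the control list (left) and the CDCA list (right), with all listed peaks as grey bins (darker for more peaks), member peaks as coloured points, open where not shared, and a dashed line at a fold of 6, below which no peak is listed. In control, CYR61 (6.13), an AMOTL2 peak (6.19) and a YAP1 peak (6.55) lie as open points just above that line at backgrounds of 550, 105 and 93.8.

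The 4 strong control-only peaks were those of CYR61 (fold 6.13), AMOTL2 (6.19) and YAP1 (6.55 and 7.14). All 4 had a number left out beside them in the CDCA list. The share was 92.1% among all strong control-only peaks with CDCA peaks on both sides. Both YAP1 peaks faced the same gap, so they share this outcome. Their backgrounds were 550, 105, 93.8 and 53.0. Over all members, 9 of the 59 control member peaks (15.3%, 7.22 to 27.0) had a background of at least 10, beside 6.56% of the list. Of these 9, 4 were shared (44.4%, 13.7 to 78.8), beside 74.5% of the list at that level. In the CDCA list 5 of 37 had such a background, beside 6.77%, and all 5 were shared, beside 80.2%. The part of the fold limit in the control-only calls was not tested.

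LATS1, the kinase that phosphorylates YAP1 and WWTR1, had the most sites common to both libraries among the 9 genes. Its 3 strong control peaks and 2 strong CDCA peaks were all shared. The lists share 87.6% and 91.2% of their strong peaks, and 18.2% and 22.2% of all peaks. The LATS1 span of 61 kb held 10 control and 7 CDCA peaks, with 4 shared sites. The strongest lay on chromosome 6 at 150004085 to 150005266 in control (height 307, fold 25.7, −log10 q 314), and its CDCA partner at 150004873 to 150005246 (258, 25.9 and 267). Next to it, 150000788 to 150001792 in control (246, 30.9 and 274) met 150001044 to 150001660 in CDCA (210, 17.6 and 182). Towards the 3′ end, at about 4.2 kb from it, the control peak at 149983051 to 149983374 (120, 34.1 and 148) met a CDCA peak at 149982973 to 149983678 (95.3, 13.8 and 74.5). In a more 5′ position, 150022925 to 150023356 in control (37.1, 7.62 and 20.9) met 150022973 to 150023527 in CDCA (57.6, 8.37 and 32.8). At the first 3 of these sites 4.41%, 2.65% and 2.05% of control peaks and 3.45%, 8.08% and 15.4% of CDCA peaks had a fold as high. The backgrounds there were 11, 7 and 2.54 in control and 9, 11 and 6 in CDCA. The strongest of the 6 control-only peaks lay at 149997211 to 149997821 (fold 20.5, −log10 q 63.0), between CDCA peaks with consecutive numbers, and the strongest of the 3 CDCA-only peaks at 149994329 to 149994528 (7.80 and 13.7).

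LATS2, the paralogous kinase and itself known as a YAP target, had 11 peaks in each list, of which 2 CDCA peaks and no control peak were strong in their own list. The CDCA-only peak on chromosome 13 at 21619863 to 21620358 had the highest fold of all member peaks, 63.5, with a height of 113 and a −log10 q of 194. In the CDCA list 0.423% of peaks had a fold as high. Its background was 0.800, near the lowest of the list (0.745), and its height stood for 177 fragments. The nearest control peak lay 2173 bp away, at 21622531 to 21622730, with a fold of 6.11 and a −log10 q of 7.29. The control list left out 2 numbers in the gap of 14 kb that holds the CDCA peak. It was the only strong CDCA-only member, with a number left out beside it as for 97.5% of such peaks in the list. The second LATS2 site, the CDCA peak at 21562100 to 21563175 (fold 51.9, −log10 q 151), was 1076 bp long and overlapped 2 control peaks by 252 bp and 328 bp, at 21562034 to 21562351 (11.6 and 72.3) and 21562623 to 21562950 (19.1 and 53.8). The backgrounds there were 0.820 in CDCA and 8 and 1.80 in control, and the heights were 93.4 in CDCA and 104 and 52.6 in control. The remaining shared site had the opposite order of folds: 15.1 at 21557343 to 21557710 in control on a background of 5, and 7.66 at 21557304 to 21557746 in CDCA on a background of 17, with −log10 q of 74.2 and 70.1. The strongest control-only LATS2 peak, at 21554593 to 21554945 (24.8 and 64.4), lay 823 bp from the nearest CDCA peak, and the CDCA list left out no number there. Of the 9 CDCA-only peaks, 3 had a number left out beside them in the control list and 6 had none. In the whole list 63.2% of CDCA-only peaks between 2 control peaks had one. Peaks in the same gap share this outcome: the 3 lay together in a gap, and 3 of the 6 in another.

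**Figure D4:**
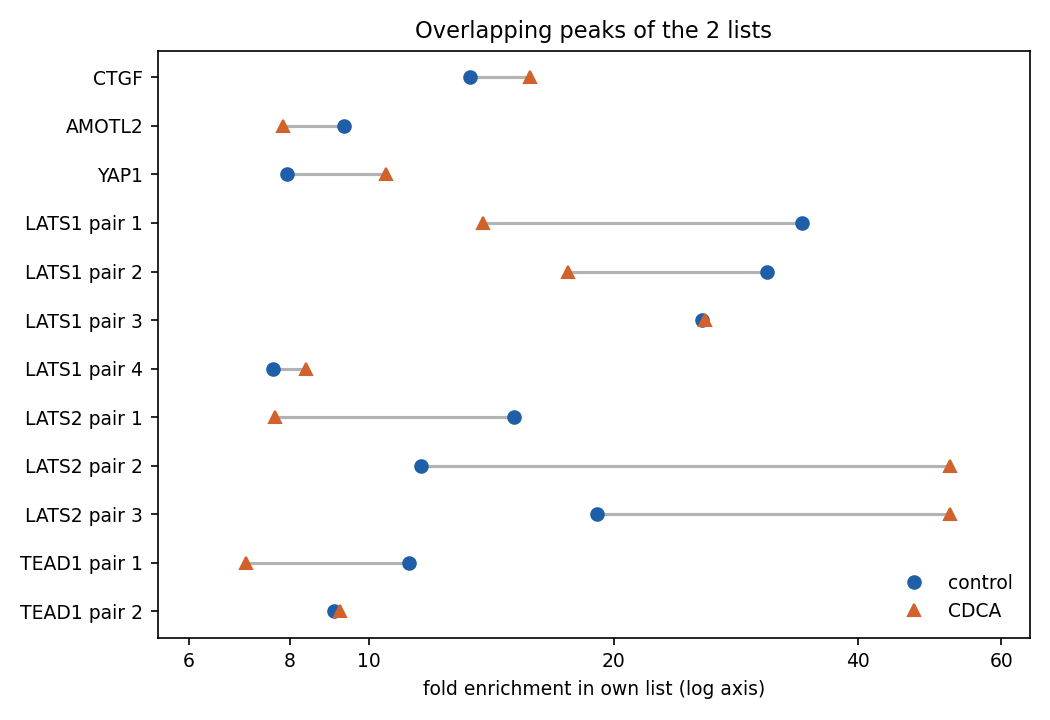
Fold enrichment in each peak's own list (x axis, log) for the 12 pairs of overlapping peaks (y axis, by gene and in genome order), with circles for control and triangles for CDCA joined by a line, and no error because each condition had 1 library. Neither list holds the higher value throughout (34.1 in control and 13.8 in CDCA at LATS1 pair 1, 13.3 and 15.8 at CTGF), and LATS2 pairs 2 and 3 share the CDCA peak with a fold of 51.9.

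TEAD1, the DNA-binding partner of YAP1 and WWTR1, had the largest gap between the lists, 19 control and 5 CDCA peaks in a span of 272 kb. The CDCA number was 26.3% of the control number, beside 82.7% for the whole lists. TEAD1 was singled out for this difference and its peaks are not replicates, so the value is a description. No TEAD1 peak was strong. Control peaks had folds from 7.13 to 20.1, −log10 q from 10.2 to 48.4 and backgrounds from 1 to 7. CDCA peaks had folds from 7.06 to 18.1, −log10 q from 11.2 to 38.9 and backgrounds from 0.920 to 1.86. In a gap of 99.3 kb between neighbouring CDCA peaks, at 12847521 to 12946866 on chromosome 11, there were 14 control peaks, and the CDCA list left out 6 numbers. The gap holds no CDCA peak by definition, so these counts do not compare the lists. The strongest of the 14 control peaks, at 12911402 to 12911616, had a fold of 20.1 and a −log10 q of 48.4 on a background of 1.2. The first shared site joined 12802866 to 12803177 in control (fold 11.2, −log10 q 39.7) to 12802837 to 12803069 in CDCA (7.06 and 11.2). The second shared site, about 15.1 kb from the 3′ end, joined 12951548 to 12951991 (9.07 and 24.2) to 12951788 to 12951987 (9.21 and 15.7). The strongest CDCA peak was CDCA-only, at 12946867 to 12947116 (18.1 and 38.9), 3149 bp from the nearest control peak. TEAD1 peaks rested on few fragments, 17 to 68 in control and 25 to 55 in CDCA.

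Positions along the spans are given as counts, and the same share over all listed peaks was not computed. In control 44 of the 59 summits and in CDCA 23 of the 37 lay nearer to the 3′ end than to the 5′ end of their span, and TEAD1 alone gave 15 of the 44. Among strong peaks this held for 9 of 10 in control and 5 of 7 in CDCA, and the exceptions were the AMOTL2 site in both lists and the CDCA-only LATS2 peak. The last 10% of the span held 10 control and 6 CDCA summits, and the first 10% held 3 and 1. These counts follow genome spans with introns, so they do not place peaks in transcripts.

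At the 12 pairs of overlapping peaks, which came from 6 genes, the summits were 0 to 558 bp apart with a median of 58 bp. In 10 pairs the summits lay within 100 bp. Pairs were chosen by overlap, which itself keeps summits close, and these distances were not computed over the whole lists. The widest distance was that of the control LATS2 peak at 21562034, which shares its partner with a second control peak. CTGF, AMOTL2 and YAP1, with backgrounds from 90 to 841, had folds between 7.84 and 15.8 in both libraries.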

How the data were processed

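Peak lists of the control and CDCA immunoprecipitations were used. Per the submitters' processing notes, TopHat2 2.0.13, MACS2 2.1.0 and hg19 were used, with no roles named. Which input, filters and limits made the lists is not given in the sources used here. Per the file headers, the authors deposited for each peak a height (signal) at the summit, −log10 of the p-value and of the q-value, and a fold enrichment (ratio). Lists were made per library. Members and gene list were chosen with earlier results of these data known.

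Peaks were taken by summit in the spans. In each gene and list the strongest peak, every strong peak, every shared pair and the strongest unshared peak were named. Background was (height + 1) / fold − 1. Heights were whole multiples of 0.862 (control) and 0.640 (CDCA) for 100% of peaks within 0.02, which gave the number of stacked fragments (at least 12 and 15 in the lists). Total depth is unknown. Other pathway genes were not placed, for want of an hg19 annotation in use here. The control list held 57.3% and the CDCA list 52.1% of its peak numbers. The overlap and peak-number steps were tested on simulated data (20000 and 10000 peaks, 100% right). Tools were Python 3.11.15, scipy 1.17.1, pandas 2.3.3, matplotlib 3.10.9 and numpy 2.4.6. Alternatives covered peak limits, spans and the definition of overlap.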

Additional observations from a re-analysis of the deposited data

Results flagged for a closer look

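Peaks that were numbered but are not in the lists lay within the spans. Between listed peaks of the same gene the control list left out 34 numbers over the 9 genes and the CDCA list 17. In control they were 10 at YAP1, 9 at WWTR1, 7 at TEAD1, 3 at AMOTL2, 3 at LATS1 and 2 at LATS2. In CDCA they were 8 at TEAD1, 5 at LATS2, 3 at WWTR1 and 1 at LATS1. They stand out as signal outside every comparison of listed peaks, with no position or value of their own. A gene with 0 or 1 listed peak, such as CTGF, CYR61 and ANKRD1, cannot give such a count, and this touches YAP1 and AMOTL2 in the CDCA list too.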

How the results depend on the processing

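The number of member peaks depended on the limits set. At a −log10 q of at least 20 it was 32 in control and 17 in CDCA, at 50 it was 17 and 9, and at a fold of at least 10 it was 26 and 13, from 59 and 37. Shared peaks fell from 12 and 11 to 7 and 7 when 50% of both peaks had to overlap, and to 6 and 5 at a fold of at least 10 in both lists. Fewer peaks enter by construction. Counts stayed within 1.5 times with spans widened by 1 kb, peaks taken by overlap with the span (peak counts), summits within 100 bp, edges within 200 bp, a −log10 q of at least 20 in both lists (shared counts), and without TEAD1, a setting added after the data were seen. The CDCA count was below the control count in all peak-count settings, as it was for the whole lists (52188 beside 63093). List-wide counts at these limits were not computed, so whether this direction is particular to the members at them is not known. No paired analysis was possible because each condition had 1 library. Weak peaks rest on as few as 13 fragments.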
